A study of Mus musculus with 6 samples.

Results

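The 33 genes described here encode the DNA replication machinery of S phase, with the enzymes that supply its nucleotides and the factors that switch it on. They form a list of gene symbols that names enzymes and factors of replication. No measured value enters the rule of the list, but its members were chosen with earlier results of these data known. All 33 were found among the 24091 symbols of the raw count table, and all 33 passed the filter on low counts that left 12469 genes for testing. The mRNA came from group 1 innate lymphoid cells (ILC1) of the livers of C57BL/6 mice, with 3 libraries from healthy mice (healthy 1 to 3) and 3 from mice given C1498 cells by vein (AML 1 to 3), all taken at day 14. C1498 cells are a mouse leukaemia line of the myeloid kind that grows in this strain. No other genotype or treatment is labelled, the sorting gate, age and sex are not given, and it is not said whether a library came from 1 animal or a pool. What a p-value is measured against is thus the spread from library to library, part of which may be technical. The groups were set up to compare liver ILC1 of leukaemic and healthy mice.

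DNA replication is prepared in G1 phase, when ORC, CDC6 and CDT1 load the ring-shaped MCM helicase onto origins. In S phase CDC45 and the GINS complex turn that ring into an active helicase, primase and the polymerases copy the strands, and the sliding clamp PCNA holds the polymerases and the flap and ligase enzymes on DNA. Many of the genes are targets of E2F transcription factors, which the retinoblastoma family represses in resting cells. Tissue-resident lymphocytes such as liver ILC1 are known to divide seldom at rest. In bulk RNA a larger share of dividing cells and more of these mRNAs in each cell cannot be told apart.

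Total counts ran from 45135093 to 51284691 per library, and reads on the 33 genes made up 0.141% to 0.226% of them. Levels are given as CPM, read counts divided by the library size after TMM scaling, which shows how many reads stand behind a gene or a sum. An order of levels between genes is given per kilobase (RPKM). All 10 ILC1 markers listed had reads, and their summed level was 6104 to 6318 CPM in healthy and 5817 to 6506 CPM in AML libraries. Eomes, which marks conventional NK cells, measured 4.96 to 10.2 CPM in healthy and 5.93 to 17.1 CPM in AML libraries.

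Of the 33 genes, 29 had a promoter entry in RefSeq's GRCm38.p6 table, which covers 250 bases before to 50 bases after a transcription start. The 8-letter words TTTCGCGC, TTTGGCGC, TTTCCCGC and TTTGCCGC, which are forms of the E2F recognition sequence, were searched on both strands. At least 1 of them lay in the window of 13 of the 29 genes (44.8%, with a 95% exact Clopper-Pearson interval of 26.4 to 64.3), against 2.605% of the 27025 genes in the table. TTTCGCGC occurred in 7 of the 29 genes, TTTGGCGC in 6, TTTCCCGC in 5 and TTTGCCGC in 0. In the 250 bases before the start alone, 8 of the 29 genes held a match, against 2.16% of all genes. A match describes these letters only, and the words may overlap each other. The interval treats the 29 genes as independent draws, although they belong to a chosen list. The stretches below are the 250 bases before the start of 4 genes, each with the matches in capitals, shown because the list did not use this sequence feature. They lie at chr1:128359706-128359955 (minus strand) for Mcm6, chrX:93632156-93632405 (minus strand) for Pola1, chr17:56304063-56304312 (plus strand) for Uhrf1 and chr1:191575545-191575794 (minus strand) for Dtl, in GRCm38.p6, and are written 5′ to 3′ on the gene's strand.
Mcm6: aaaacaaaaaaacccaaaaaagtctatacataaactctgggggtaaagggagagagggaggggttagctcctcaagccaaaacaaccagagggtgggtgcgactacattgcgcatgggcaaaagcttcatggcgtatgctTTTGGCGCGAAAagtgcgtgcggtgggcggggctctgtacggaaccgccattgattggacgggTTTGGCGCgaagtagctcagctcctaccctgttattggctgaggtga
Pola1: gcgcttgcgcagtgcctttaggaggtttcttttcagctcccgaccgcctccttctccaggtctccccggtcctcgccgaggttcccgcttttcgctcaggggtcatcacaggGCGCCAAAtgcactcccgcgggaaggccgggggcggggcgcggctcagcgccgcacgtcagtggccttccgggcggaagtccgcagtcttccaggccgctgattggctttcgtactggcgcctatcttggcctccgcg
Uhrf1: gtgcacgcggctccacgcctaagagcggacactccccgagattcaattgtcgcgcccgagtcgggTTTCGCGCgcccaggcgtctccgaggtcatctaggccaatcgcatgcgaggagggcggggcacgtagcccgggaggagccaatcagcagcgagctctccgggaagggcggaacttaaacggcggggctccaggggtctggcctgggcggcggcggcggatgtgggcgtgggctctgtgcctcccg
Dtl: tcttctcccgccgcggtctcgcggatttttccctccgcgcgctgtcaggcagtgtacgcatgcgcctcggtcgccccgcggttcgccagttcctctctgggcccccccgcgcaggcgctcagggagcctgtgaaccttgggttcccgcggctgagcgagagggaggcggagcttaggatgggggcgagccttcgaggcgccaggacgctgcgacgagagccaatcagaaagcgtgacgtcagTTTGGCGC
Mcm6 held 3 matches, of which 2 overlapped, on opposite strands, in the first run of capitals. The single match of Dtl ended at the base before the start. For Uhrf1 the start of the promoter entry lies inside the span that the count table gives the gene, a span whose ends are those of RefSeq. Pola1 carried its match in the reverse orientation, and Uhrf1 carried TTTCGCGC. The 13 genes with a match had a median log2 fold change of 0.40 between AML and healthy libraries, and the 16 genes with an entry but no match one of 0.35.

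In the comparison of AML with healthy libraries, 28 of the 33 replication genes had higher mean values in AML, but the 3 AML libraries differed widely among themselves. One of them, AML 1, was the highest of all 6 libraries for 31 of the 33 genes, and a healthy library, healthy 2, was the second highest for 26. The 2 remaining AML libraries lay below healthy 2 for 29 of the 33 genes. No gene passed an adjusted p of 0.05 in edgeR's quasi-likelihood test with Benjamini-Hochberg adjustment over 12469 genes, and the adjusted p ran from 0.469 for Gins1 to 0.886 for Fen1.

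The background gives these counts their scale. A positive fold change was found for 52% of all genes tested, and their median log2 fold change was 0.01, beside 0.39 for the replication genes. AML 1 was the highest library for 19.9% of all genes, and AML 1 followed by healthy 2 was the order for 4.92%, against 25 of the 33 replication genes. Healthy 2 was the highest healthy library for 29.5% of all genes and for 30 replication genes, and it stood above both AML 2 and AML 3 for 37.3% of all genes. The test called 0% of all genes at an adjusted p of 0.05 and 8.84% at an unadjusted p below 0.05. At the unadjusted level 2 replication genes were higher in AML, Gins1 and Chaf1a, where 5.08% of all genes were, and 0 were lower, where 3.75% were. The same 2 genes were the members whose AML libraries all lay above every healthy library, which held for 8.2% of all genes, and 0 had all AML libraries below, which held for 7.34%. DESeq2 and the likelihood ratio test of edgeR called 143 genes (1.15%) and 100 genes (0.802%), limma-voom called 0%, and 0 replication genes were among them. At an unadjusted p below 0.05 DESeq2 counted 4 replication genes (10.1% of all genes), the likelihood ratio test 3 (8.59%) and limma-voom 1 (10.8%).

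Leaving out AML 1 gave the lowest values of any single library left out, and leaving out healthy 2 the highest median, at 0.62. The median log2 fold change of the 33 genes was 0.072 without AML 1, and 22 of them were positive where 52% of all genes were. At an unadjusted p below 0.05, Gins1 was higher, where 6.95% of all genes were, and Pcna and Slbp were lower, where 8.01% were. Without healthy 2, 12 of the 33 genes were higher at that level and 0 lower, and 0 passed an adjusted p of 0.05. The share of all genes at that level was not counted for that run, so the 12 cannot be read against a background. Healthy 2 was the highest healthy library for 30 of the 33 genes. Healthy 1 or healthy 3 was the lowest library for 26 of the 33 genes, against 4083 of the 12469 genes tested. Without both healthy 1 and AML 1 the median was -0.0041 with 16 positive. The call count stayed at 0 of 33 without AML 1, where the test called 147 genes, or 1.15% of all.

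**Figure D1:**
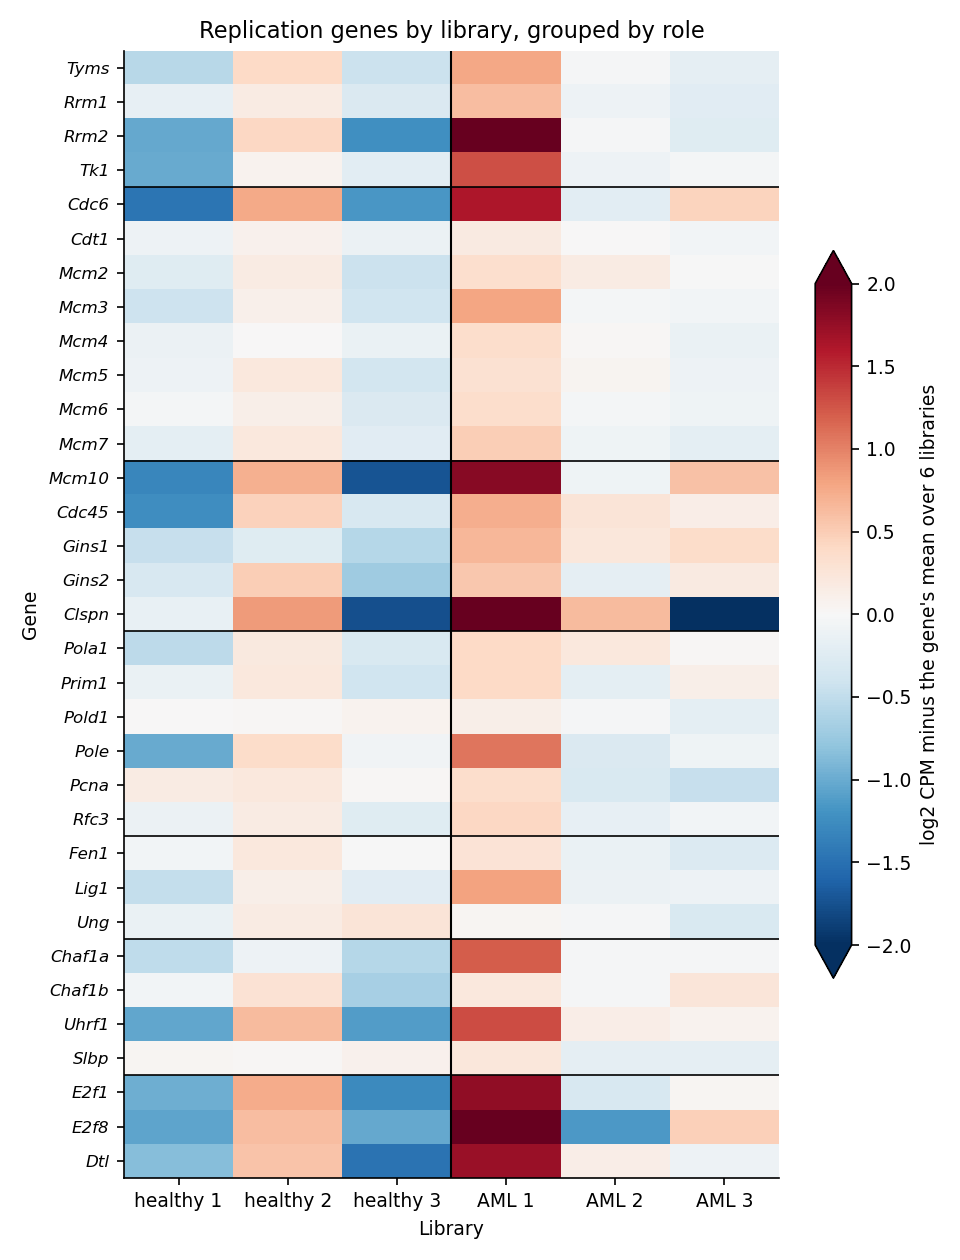
Levels of the 33 genes in the 6 libraries, as log2 CPM minus the gene's mean over the 6 libraries, with rows grouped by role between the horizontal lines and the healthy and AML libraries either side of the vertical line (color limits at -2 and 2). The AML 1 column is red in nearly every row and healthy 2 is the reddest of the healthy columns. AML 2 and AML 3 are close to white in most rows, but Clspn in AML 3 and E2f8 in AML 2 are blue.

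Nucleotide supply was represented by 4 genes, and for all 4 the order was AML 1 first and healthy 2 second. Rrm2, the small subunit of ribonucleotide reductase that cells make in S phase (chromosome 12, 24708254 to 24714146), measured 8.41, 22.7 and 7.31 CPM in healthy 1 to 3 and 73.2, 16.8 and 14.4 CPM in AML 1 to 3. The AML 1 value was 4.69 times the mean of the other AML libraries, and healthy 2 was 2.89 times the mean of the other healthy ones. The groups overlapped, and the log2 fold change was 1.44 ± 0.70 (SE, adjusted p = 0.577). Rrm1, the large subunit (chromosome 7, 102441695 to 102469771), was more even, at 84.7, 106 and 77.9 CPM in healthy and 146, 88.8 and 80.8 CPM in AML libraries. The log2 fold change of Rrm1 was 0.23 ± 0.23 (adjusted p = 0.756). The 2 subunits stood at different levels per kilobase, with Rrm1 at 22.5 ± 3.72 and Rrm2 at 5.90 ± 3.96 RPKM in healthy libraries (SD, n = 3). In AML 1 they were nearly level, at 36.8 and 33.8 RPKM.

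Tyms, thymidylate synthase, which makes the thymine nucleotide, followed the same order with 8.22, 15.9 and 9.01 CPM in healthy and 20.7, 11.9 and 10.7 CPM in AML libraries. Its groups overlapped as well, at a log2 fold change of 0.39 ± 0.34 (adjusted p = 0.721). Tk1, thymidine kinase of the salvage route, ranged from 3.42 CPM in healthy 1 to 16.8 CPM in AML 1. The span of Tk1, introns included, lies inside that of Afmid, a gene of the opposite strand at 61.7 CPM on average. Without strand information, reads on any exon bases shared by the pair cannot be told apart. Whether exons overlap was not examined.

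Origin licensing took the most reads of the roles, with a summed level of 767, 927 and 695 CPM in healthy and 1118, 856 and 797 CPM in AML libraries. Its loaders differed from each other. Cdt1, which brings the MCM ring to origins (chromosome 8, 122568015 to 122573130), was nearly flat, at 58.7, 66.9 and 58.0 CPM in healthy and 70.9, 63.0 and 60.7 CPM in AML libraries. The highest library was 1.22 times the lowest, the smallest such ratio among the 33 genes. Cdc6, the ATPase that works beside CDT1 (chromosome 11, 98907889 to 98923942), was low and uneven, at 1.88, 8.76 and 2.31 CPM in healthy and 15.9, 4.48 and 7.04 CPM in AML libraries. Healthy 2 lay above AML 2 and AML 3 for it, and the log2 fold change of 1.08 ± 0.68 had an adjusted p of 0.643.

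The MCM helicase is a ring of 6 different subunits, and the mRNAs of all 6 were well measured. Mcm6 (chromosome 1, 128331575 to 128359705), whose promoter is printed above, stood at 226, 252 and 190 CPM in healthy and 296, 226 and 218 CPM in AML libraries. Mcm4 stood at 148, 162 and 145 CPM in healthy and 204, 163 and 146 CPM in AML libraries. For both genes AML 2 and AML 3 lay within or near the healthy range, and the log2 fold changes were 0.15 ± 0.15 (adjusted p = 0.759) and 0.17 ± 0.13 (adjusted p = 0.678). Mcm5 measured 121, 150 and 100 CPM in healthy and 161, 135 and 120 CPM in AML libraries. Mcm7, whose introns hold the miR-106b cluster, measured 56.1, 74.8 and 54.8 CPM in healthy and 90.9, 60.5 and 56.4 CPM in AML libraries. Here too AML 1 came first and healthy 2 second, with log2 fold changes of 0.17 ± 0.16 and 0.16 ± 0.20.

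Mcm2 and Mcm3 had the smallest p of the ring. Mcm2 (chromosome 6, 88883474 to 88898780) measured 97.7, 130 and 85.7 CPM in healthy and 145, 129 and 115 CPM in AML libraries, with a fitted log2 fold change of 0.31 ± 0.16 (adjusted p = 0.591). Mcm3 (chromosome 1, 20803014 to 20820213) measured 58.3, 83.7 and 59.2 CPM in healthy and 135, 75.7 and 74.8 CPM in AML libraries, with a fitted log2 fold change of 0.50 ± 0.25 (adjusted p = 0.586). In both genes healthy 2 was higher than AML 2 and AML 3, so the groups overlapped. Without AML 1 their log2 fold changes were 0.22 ± 0.17 and 0.16 ± 0.16.

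Per kilobase, Mcm6 was the highest and Mcm4 the second highest subunit in each of the 6 libraries. Mcm6 ran from 43.0 RPKM in healthy 3 to 67.0 RPKM in AML 1, and Mcm4 from 40.7 RPKM in healthy 3 to 57.2 RPKM in AML 1. Mcm5 and Mcm2 came next, at means over the 6 libraries of 37.5 and 34.8 RPKM, and Mcm3 and Mcm7 last, at 28.2 and 27.5 RPKM. Between neighbours in this order the ranges over the 6 libraries overlapped. Mcm3 took the most different places: it was the lowest subunit in all 3 healthy libraries, at 20.3 to 29.2 RPKM, and the third highest in AML 1, at 46.9 RPKM. The ratio of the highest to the lowest subunit was 2.52, 1.96 and 2.09 in healthy and 1.75, 2.02 and 2.08 in AML libraries, so the mRNAs of the ring were closest to each other in AML 1.

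**Figure D2:**
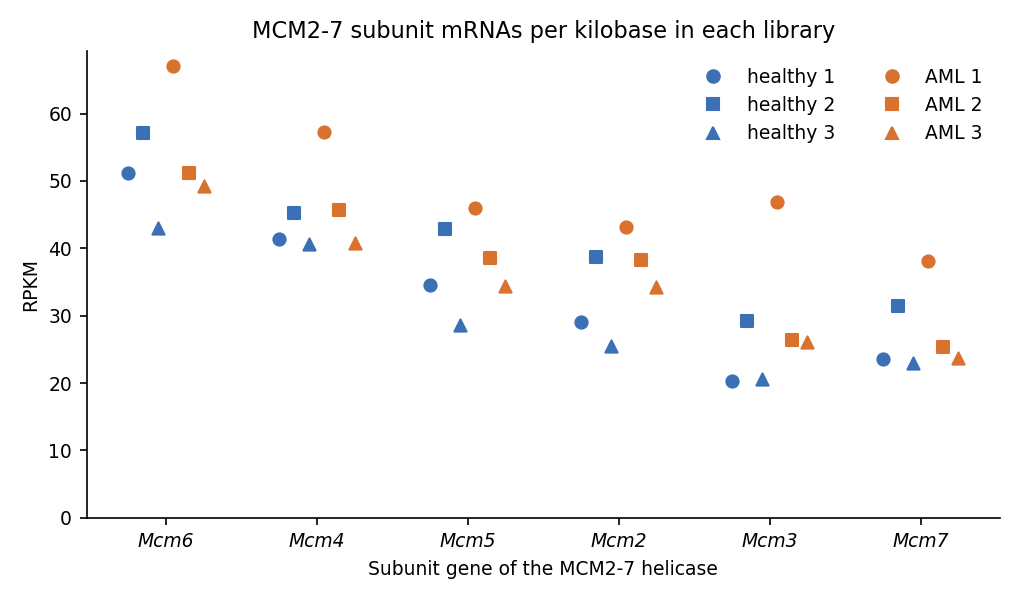
RPKM of the MCM subunit genes in each library, ordered by mean, with blue for healthy and orange for AML and a marker for the library number in its group. Mcm6 is highest and Mcm4 second in each library, and AML 1 is the top point of every gene, with Mcm3 at 46.9 RPKM there against 20.3 to 29.2 RPKM in the healthy libraries.

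The 5 helicase activation and fork protection genes among the 33 were scarce. One of them separated the groups with AML above, a pattern of 8.2% of all genes tested. Gins1, a GINS subunit (chromosome 2, 150909594 to 150931280), measured 2.23, 2.59 and 2.06 CPM in healthy and 4.83, 3.58 and 3.93 CPM in AML libraries. Every AML library lay above every healthy one, and the log2 fold change of 0.84 ± 0.26 had the smallest p of the 33 genes, at an unadjusted p of 0.0129 and an adjusted p of 0.469. The level rested on 99 to 129 reads in healthy and 187 to 226 reads in AML libraries. Without AML 1 its log2 fold change was 0.71 ± 0.30 (adjusted p = 0.331), and over all alternatives its fold change stayed between 0.69 and 0.93. Gins2, of the same complex, did not separate the groups, at 3.97, 6.98 and 3.05 CPM in healthy and 7.25, 4.40 and 5.61 CPM in AML libraries. Its 3′ end overlaps 118 bases of Gse1 on the other strand, which stood at 79.0 CPM on average. Gins3 and Gins4, also GINS subunits, are not among the 33 genes, and their AML libraries all lay above the healthy ones. Gins3 measured 19.4, 20.5 and 19.0 CPM in healthy and 25.6, 21.3 and 21.6 CPM in AML libraries. Gins4 measured 52.6, 53.7 and 53.0 CPM in healthy and 57.6, 55.9 and 57.1 CPM in AML libraries. Their log2 fold changes were 0.22 ± 0.12 (adjusted p = 0.605) and 0.10 ± 0.07 (adjusted p = 0.678).

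Cdc45, which joins the ring with GINS, ran from 3.06 to 9.95 CPM in healthy and from 7.93 to 12.0 CPM in AML libraries. Mcm10, an initiation factor, measured 0.912, 3.72 and 0.685 CPM in healthy and 7.97, 2.14 and 3.38 CPM in AML libraries, with a fitted log2 fold change of 1.34 ± 0.74 (adjusted p = 0.613). Healthy 1 and healthy 3 were the low libraries for it, and healthy 2 lay above AML 2 and AML 3. Clspn, which encodes the fork checkpoint adaptor claspin, had the widest range of the 33 genes, at 0.952, 1.91 and 0.312 CPM in healthy and 7.87, 1.63 and 0.189 CPM in AML libraries. Both the highest and the lowest value were AML libraries, with 368 reads in AML 1 and 9 in AML 3. Its log2 fold change was 1.61 ± 1.14 with all libraries (adjusted p = 0.676) and -0.22 ± 1.00 without AML 1.

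The polymerase and clamp genes held 2 of the members with a negative fold change, Pcna and Pold1. Pcna, the sliding clamp (chromosome 2, 132249286 to 132253180), measured 78.2, 81.1 and 71.5 CPM in healthy and 89.7, 56.9 and 50.9 CPM in AML libraries. AML 1 was above every healthy library, and AML 2 and AML 3 were below every healthy library. The log2 fold change was -0.23 ± 0.20 with all libraries (adjusted p = 0.727) and -0.52 ± 0.10 without AML 1, which missed the threshold (adjusted p = 0.0595). Over all alternatives the adjusted p of Pcna ran from 0.0515, without both healthy 1 and AML 1, to 0.963. Pold1, the catalytic subunit of polymerase delta, had AML 2 and AML 3 below the healthy libraries by less, with 98.1, 98.4 and 102 CPM in healthy and 106, 96.1 and 84.7 CPM in AML libraries.

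Per kilobase the other large catalytic subunits stood lower, with means over the 6 libraries of 0.946 RPKM for Pole and 1.94 RPKM for Pola1 against 27.4 RPKM for Pold1. Pole, of polymerase epsilon, measured 3.89, 10.1 and 7.48 CPM in healthy and 16.5, 6.43 and 7.40 CPM in AML libraries, with a fitted log2 fold change of 0.50 ± 0.45 (adjusted p = 0.735). Pola1, of polymerase alpha, ran from 11.3 to 18.7 CPM in healthy and from 16.5 to 21.6 CPM in AML libraries. Prim1, the primase that starts each new strand, and Rfc3, of the clamp loader, ran from 19.0 to 29.0 and from 21.0 to 27.7 CPM in healthy libraries. In AML libraries they ran from 22.0 to 33.3 and from 22.0 to 33.1 CPM. The groups of all 4 genes overlapped.

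Genes that finish the lagging strand showed the same split of AML 1 from the other AML libraries. Fen1, the flap endonuclease (chromosome 19, 10199132 to 10203943), measured 83.0, 100 and 85.8 CPM in healthy and 105, 79.4 and 71.3 CPM in AML libraries. AML 2 and AML 3 were again below every healthy library, and the log2 fold change was -0.07 ± 0.15 (adjusted p = 0.886), or -0.25 ± 0.11 without AML 1 (adjusted p = 0.335). Lig1, the ligase that seals Okazaki fragments, measured 19.99, 30.0 and 23.7 CPM in healthy and 48.2, 25.7 and 26.0 CPM in AML libraries, with a fitted log2 fold change of 0.44 ± 0.27 (adjusted p = 0.640). Ung, which removes uracil from DNA, was low in every library, from 1.72 CPM in AML 3 to 2.53 CPM in healthy 3, and it was 1 of the 2 genes for which AML 1 was not the highest library. The other was Chaf1b. Lig1 shares 1409 bases with 6330408A02Rik on the opposite strand, a gene of 3.02 CPM on average.

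Chromatin genes held the second and last member whose AML libraries all lay above the healthy ones, a pattern of 8.2% of all genes tested. Chaf1a, the large subunit of the histone chaperone CAF-1 (chromosome 17, 56040416 to 56070276), measured 11.1, 14.7 and 10.6 CPM in healthy and 36.7, 15.5 and 15.6 CPM in AML libraries. AML 2 and AML 3 were above healthy 2 by under 1 CPM. The log2 fold change was 0.89 ± 0.35 (unadjusted p = 0.0339, adjusted p = 0.539) and stood at 0.35 ± 0.18 without AML 1 (adjusted p = 0.421). The span of Chaf1a overlaps 2024 bases of that of Ubxn6 on the opposite strand, at 23.1 CPM on average. Reads on any exon bases shared there cannot be assigned, and whether exons overlap was not examined. Chaf1b, its partner subunit, ran from 13.2 to 25.6 CPM in healthy and from 20.5 to 24.7 CPM in AML libraries, with healthy 2 the highest.

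Uhrf1, which guides DNA methylation onto new strands and whose promoter is printed above, measured 5.87, 18.8 and 5.57 CPM in healthy and 29.7, 13.2 and 12.7 CPM in AML libraries. The log2 fold change was 0.88 ± 0.54 (adjusted p = 0.640), and healthy 2 again lay above AML 2 and AML 3. Slbp, which binds the stem loop of histone mRNAs, was the most abundant of the 33 genes per kilobase, at 111 ± 2.59 RPKM in healthy libraries, and the first in every library. It measured 233, 231 and 241 CPM in healthy and 266, 200 and 201 CPM in AML libraries. The healthy values were close together, with AML 1 above and AML 2 and AML 3 below all of them, at a log2 fold change of -0.08 ± 0.12 (adjusted p = 0.833), or -0.23 ± 0.07 without AML 1 (adjusted p = 0.192). Pcna, Fen1, Pold1 and Slbp were the 4 members with AML 2 and AML 3 both below every healthy library, a pattern of 17.6% of all genes tested.

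The regulators were the most variable role by the median ratio of the highest to the lowest library, at 9.20. All 3 had means below 10 CPM, and Clspn and Mcm10, low genes of another role, had larger ratios, at 41.6 and 11.6. E2f1, the transcription factor that opens S phase (chromosome 2, 154559400 to 154569892), measured 3.10, 10.3 and 2.53 CPM in healthy and 21.0, 4.88 and 6.31 CPM in AML libraries. E2f8, an E2F that represses the same kind of targets, measured 0.689, 2.19 and 0.706 CPM in healthy and 6.33, 0.651 and 2.00 CPM in AML libraries. AML 1 was 3.75 and 4.78 times the mean of the other AML libraries for these genes, and the log2 fold changes were 1.01 ± 0.70 (adjusted p = 0.668) and 1.32 ± 0.83 (adjusted p = 0.644). Dtl, the adaptor that sends CDT1 to degradation in S phase, measured 3.77, 10.2 and 2.45 CPM in healthy and 22.5, 7.46 and 6.39 CPM in AML libraries. The Cdt1 mRNA was the flattest of the 33 genes, and the CDT1 protein that DTL acts on was not measured. Without AML 1 the log2 fold change of Dtl was 0.34 ± 0.55 and that of E2f1 was 0.08 ± 0.59.

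**Figure D3:**
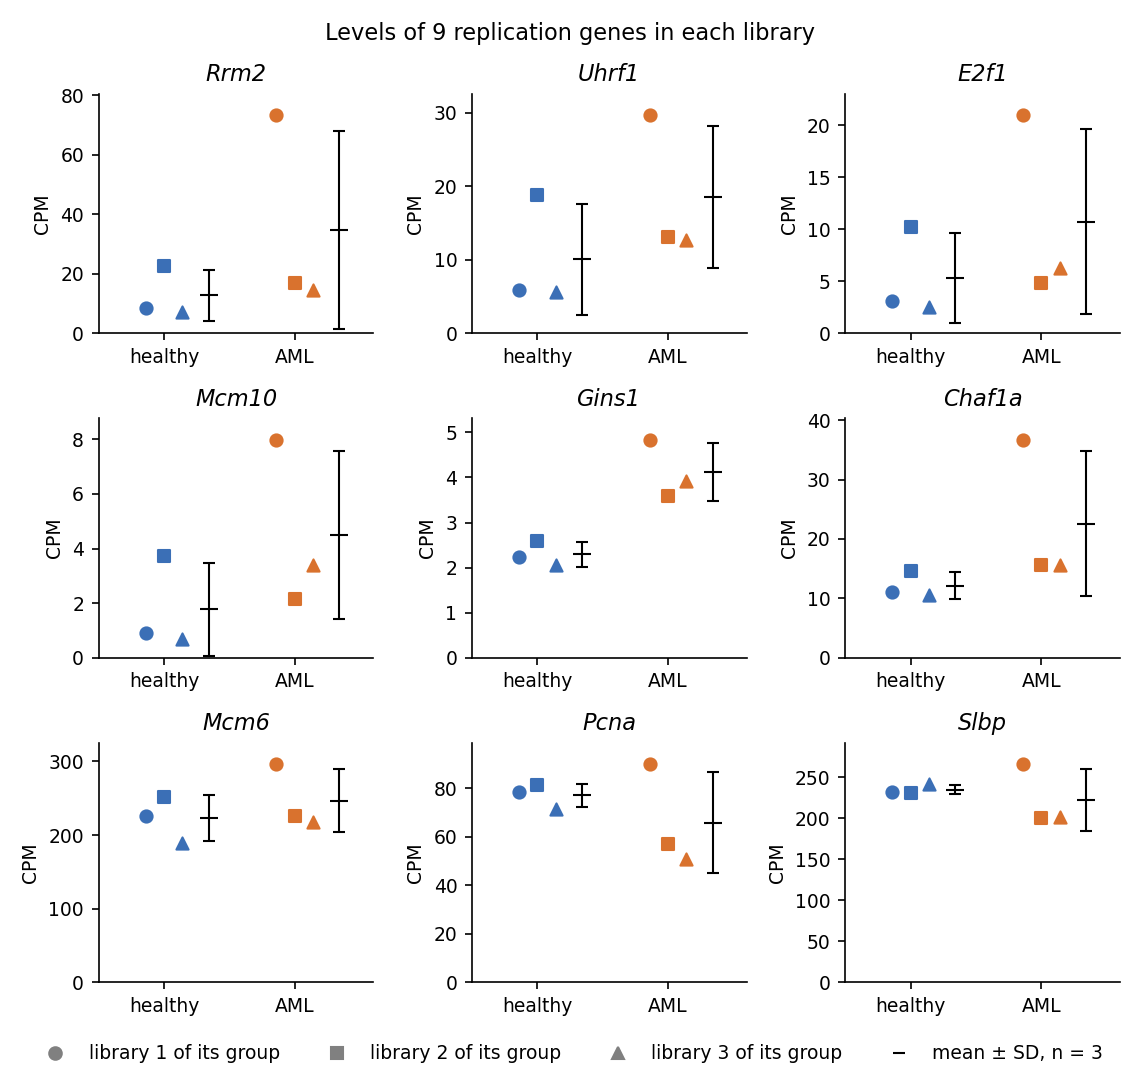
CPM of 9 replication genes in each library, with a marker for the library number within its group and the bar giving mean ± SD (n = 3). In Rrm2, Uhrf1, E2f1 and Mcm10 the square of healthy 2 lies above AML 2 and AML 3, Gins1 and Chaf1a have all AML points above the healthy ones, and for Pcna and Slbp AML 1 is the highest point and AML 2 and AML 3 are the lowest.

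The 33 genes fell into tiers by level, with bounds of 10 and 50 CPM set after the values were seen. The 12 genes with a mean of 50 CPM or more were Cdt1, Fen1, Pcna, Pold1, Rrm1, Slbp and the MCM ring. The highest library was 1.22 to 2.31 times the lowest for them, with a median of 1.58, against a median of 1.24 for the 4484 tested genes of that level. The 12 genes below 10 CPM, among them Cdc6, Mcm10, E2f1, E2f8, Dtl and Clspn, had ratios of 1.47 to 41.6 with a median of 6.60, against 2.79 for 4124 tested genes. The 9 genes between had a median of 2.41, against 1.40 for 3861 genes. Summed over the low tier the level was 29.8, 76.3 and 35.9 CPM in healthy and 141, 52.8 and 58.7 CPM in AML libraries. The high tier summed to 1342, 1535 and 1271 CPM in healthy and 1815, 1373 and 1279 CPM in AML libraries. The order of AML 1 and then healthy 2 held in both tiers, with a wider span in the low one.

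**Figure D4:**
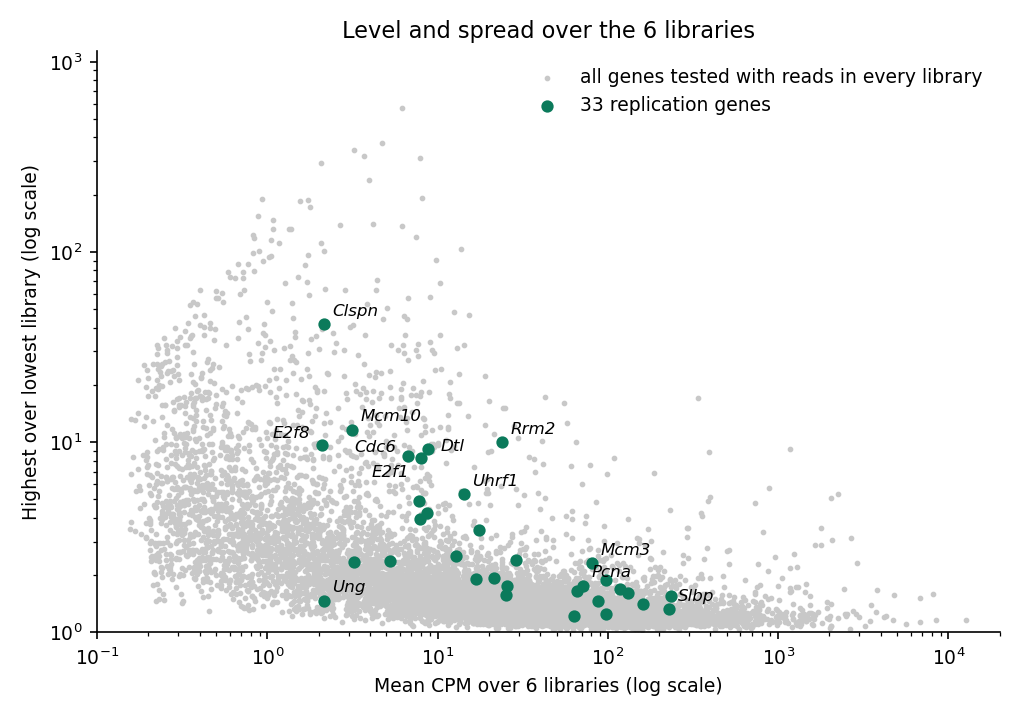
Mean CPM over the 6 libraries against the ratio of the highest to the lowest library, both on log scales, for tested genes with reads in every library (gray) and the 33 replication genes (green). The low replication genes Clspn, Mcm10, E2f8, Dtl, E2f1 and Cdc6 and the mid-level Rrm2 and Uhrf1 lie above most gray points of their level, while Ung and Slbp lie among them.

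**Figure D5:**
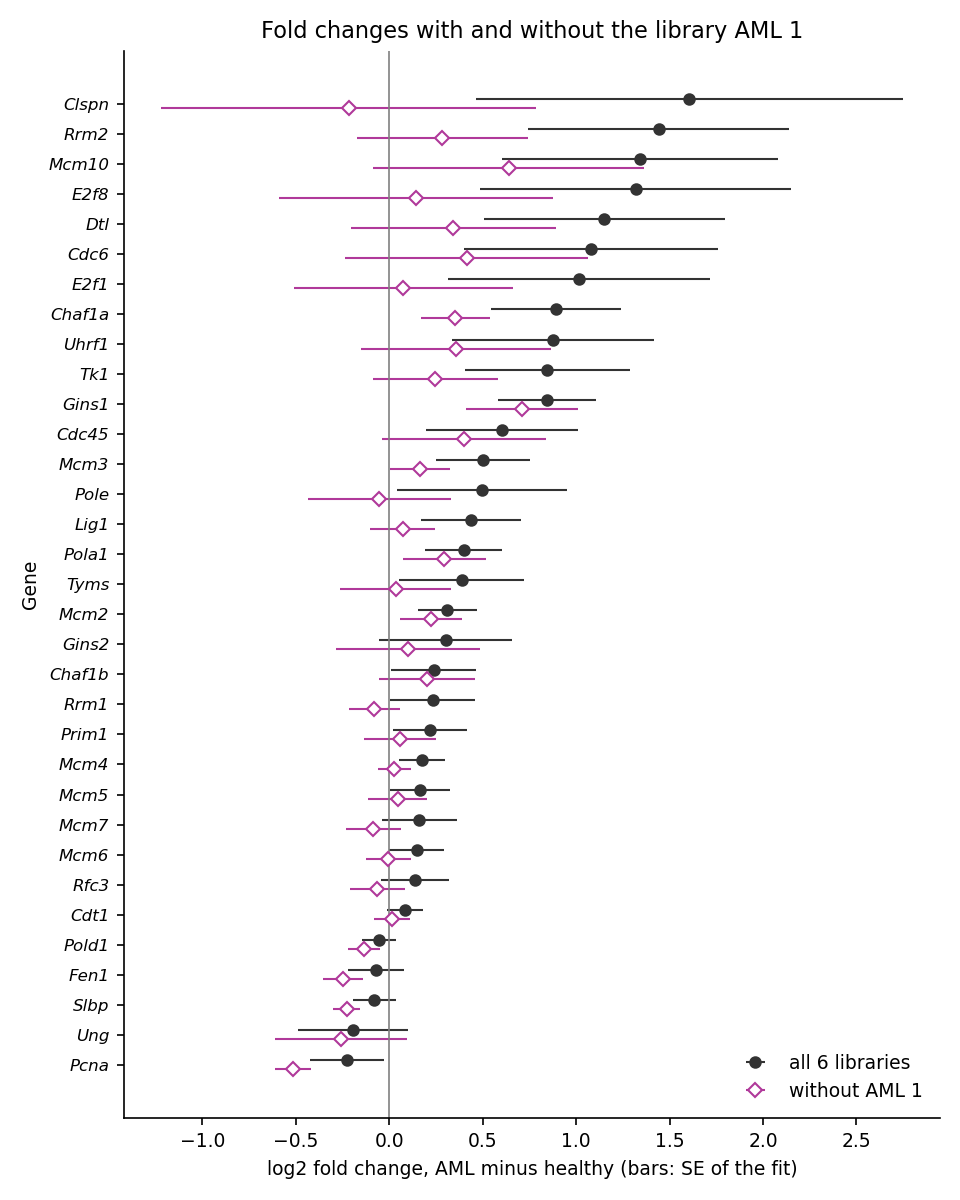
The log2 fold change of each of the 33 genes, AML minus healthy, with its standard error, from all 6 libraries (black circles) and without AML 1 (open diamonds). The diamonds lie to the left of the circles for each gene, with Gins1 at 0.71 against 0.84 and Pcna at -0.52 against -0.23.

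Replication genes outside the set were compared from a list of 56, all of them tested. On average 43 of them were higher in AML libraries, and their median was 0.14, where 52% of all genes were positive with a median of 0.01. At an unadjusted p below 0.05 there were 12 higher, where 5.08% of all genes were, and 0 lower, and 0 passed an adjusted p of 0.05 in edgeR's quasi-likelihood test. Dnmt1, the methyltransferase that UHRF1 recruits, measured 139, 144 and 139 CPM in healthy and 178, 166 and 167 CPM in AML libraries. Its groups did not overlap, and the log2 fold change of 0.28 ± 0.07 had an adjusted p of 0.399. Hells, a chromatin remodeller of dividing cells, measured 6.79, 12.7 and 7.25 CPM in healthy and 19.99, 14.97 and 18.7 CPM in AML libraries, with a fitted log2 fold change of 1.00 ± 0.27 (adjusted p = 0.404). DESeq2 called both, at adjusted p of 0.0312 and 0.0306, and over all alternatives their adjusted p ran up to 0.816.

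In 12 of the 56 genes, Dnmt1 and Hells among them, every AML library lay above every healthy one, where 8.2% of all genes had this pattern. AML 1 was the highest library for 30 of the 56, against 19.9% of all genes. The order of AML 1 and then healthy 2 held for 9 of the 56, or 16.1%, against 4.92% of all genes and 25 of the 33. Healthy 2 stood above both AML 2 and AML 3 for 22 of the 56, or 39.3%, near the 37.3% of all genes. Orc1, of the origin recognition complex, measured 2.09, 2.65 and 1.68 CPM in healthy and 7.53, 1.72 and 1.70 CPM in AML libraries. Orc6 ran from 20.6 to 25.4 CPM in healthy and from 18.1 to 32.2 CPM in AML libraries, and Gmnn, the inhibitor of CDT1, from 19.0 to 27.1 and from 20.9 to 31.2 CPM. Rpa2, of the single-strand binding complex, had a log2 fold change of -0.14 ± 0.10. The groups overlapped for these 4 genes.

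The switches of S phase entry were read from 12 cyclin and kinase genes. Of these 9 were higher on average in AML libraries, the median log2 fold change was 0.21, and 0 passed. Ccnd2 and Ccnd3, the D cyclins that start G1 kinase activity, were abundant, at 1071 to 1240 and 527 to 535 CPM in healthy and 1168 to 1358 and 500 to 611 CPM in AML libraries. Ccnd1 was scarce, at 0.810, 0.864 and 0.851 CPM in healthy and 2.61, 1.82 and 1.58 CPM in AML libraries (log2 fold change 1.25 ± 0.37, adjusted p = 0.457). The cyclins of S phase itself were low too. Ccna2 measured 2.25, 8.80 and 2.33 CPM in healthy and 25.4, 5.24 and 6.31 CPM in AML libraries, Ccne1 ran from 4.56 to 10.3 CPM and Ccne2 from 0.631 to 3.63 CPM over the 6 libraries. Ccna2 had AML 1 first and healthy 2 second, the order of 25 of the 33 genes. That order held for 3 of the 12 cyclin and kinase genes, against 4.92% of all genes. Skp2, a ubiquitin ligase subunit, had a log2 fold change of 0.66 ± 0.26 (adjusted p = 0.538).

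Pocket protein and CDK inhibitor genes were measured for the brakes. Of 17 E2F, pocket protein and DREAM genes 14 were positive with a median of 0.18, and 0 passed. Rbl1, which encodes p107, measured 51.8, 53.1 and 56.8 CPM in healthy and 69.1, 69.7 and 64.8 CPM in AML libraries, and Rbl2, which encodes p130, had a log2 fold change of 0.20 ± 0.06 (adjusted p = 0.474). For both genes every AML library was above every healthy one. Rb1 and E2f4 had log2 fold changes of 0.04 ± 0.09 and 0.03 ± 0.07. Of 7 CDK inhibitor genes 6 were tested, with 1 positive and a median of -0.48, and 0 passed. Cdkn1c, which encodes p57, measured 10.5, 14.7 and 12.1 CPM in healthy and 8.23, 5.38 and 5.47 CPM in AML libraries, with a fitted log2 fold change of -0.97 ± 0.24 (adjusted p = 0.399). DESeq2 called it at an adjusted p of 0.0228, and over all alternatives its adjusted p ran from 0.0144 to 0.816. Cdkn2d, which encodes p19, had a log2 fold change of -0.37 ± 0.12 (adjusted p = 0.479). Without both healthy 1 and AML 1 it was -0.54 ± 0.11 and passed (adjusted p = 0.0416), while 444 genes passed in all. The adjusted p of Cdkn2d ran up to 0.818 over all alternatives. Its AML libraries, like those of Cdkn1c, all lay below the healthy ones.

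Cdkn1a, which encodes p21, an inhibitor of CDKs that also binds PCNA, split the AML libraries as Pcna did. It measured 107, 93.0 and 83.9 CPM in healthy and 135, 37.1 and 17.7 CPM in AML libraries. The log2 fold change was -0.58 ± 0.62 with all libraries (adjusted p = 0.773) and -1.78 ± 0.29 without AML 1, where it passed at an adjusted p of 0.0410 while 147 genes passed in all. Its adjusted p over all alternatives ran from 0.0146 to 0.972. Cdkn1b and Cdkn2c had log2 fold changes of -0.23 ± 0.13 and 0.07 ± 0.18.

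Checkpoint and mitotic genes were counted beside the replication genes. Of 20 S phase checkpoint and fork repair genes 17 were positive with a median of 0.34, and 0 passed. Rad18 and Rad17 had AML libraries above every healthy library, at log2 fold changes of 0.44 ± 0.12 (adjusted p = 0.404) and 0.30 ± 0.11 (adjusted p = 0.497). All 38 G2 and M phase genes were positive with a median of 1.03, and 0 passed. AML 1 was the highest library for 37 of them and healthy 2 the highest healthy library for all 38. Their summed level was 160, 412 and 175 CPM in healthy and 788, 237 and 293 CPM in AML libraries, with AML 1 first and healthy 2 second. Those were also the first places for the sum of the 33 replication genes, at 1503, 1815 and 1430 against 2277, 1593 and 1510 CPM. Mki67 stood at 5.49, 20.4 and 8.78 CPM in healthy and 40.9, 7.88 and 14.9 CPM in AML libraries, and Top2a had a log2 fold change of 1.42 ± 0.67 (adjusted p = 0.569). Ccnb1, Cdk1, Ncapd2 and Ect2 had log2 fold changes of 1.79 ± 0.75, 0.86 ± 0.58, 0.62 ± 0.23 and 0.97 ± 0.40.

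Markers of other cells were set beside the order of AML 1 and healthy 2, and their part in it was not tested. The 12 genes of haematopoietic progenitors and leukaemic blasts summed to 56.4, 10.1 and 18.7 CPM in healthy and 77.0, 42.1 and 50.7 CPM in AML libraries, so AML 1 was the highest library and healthy 2 the lowest. In healthy 2 the granule genes Elane, Prtn3 and Ctsg had 0 reads, which allows up to 0.0603 CPM. All 7 tested genes of that list were positive. Kupffer cell and macrophage genes summed to 24.4 to 84.2 CPM in healthy and 119 to 190 CPM in AML libraries, with 8 of 8 tested genes positive, and healthy 2 stood at 28.6 CPM. Monocyte and neutrophil genes summed to 171 to 639 CPM in healthy and 599 to 733 CPM in AML libraries, with 7 of 8 positive, Ly6g at 0 in all libraries and healthy 2 the lowest. Dendritic cell genes summed to 869 to 906 CPM in healthy and 1133 to 1333 CPM in AML libraries, with 11 of 12 positive and healthy 2 the lowest. Conventional NK cell genes, 8 of 10 positive, summed to 161 to 205 CPM in healthy and 172 to 237 CPM in AML libraries, with AML 1 the highest.

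Red cell, T cell and the remaining lists had other orders. The 7 erythroid genes found, 4 of 4 tested positive, summed to 43.9, 156 and 82.1 CPM in healthy and 143, 146 and 200 CPM in AML libraries, so healthy 2 was the highest healthy library, while AML 3 and not AML 1 was the highest of all. Hbb-bs and Hba-a2, the globins of mature red cells, made most of that sum in the libraries other than healthy 1. T cell genes summed to 1396 to 1710 CPM in healthy and 1003 to 1367 CPM in AML libraries, with 4 of 10 positive and AML 1 the lowest. B and plasma cell genes summed to 5.73 to 7.68 CPM in healthy and 5.51 to 6.77 CPM in AML libraries, with Pax5 at 0 reads and 0 of 2 tested positive. Hepatocyte genes stayed at 0.69 to 3.97 CPM in healthy and 0.77 to 1.30 CPM in AML libraries, with 1 of 2 positive, and endothelial genes at 91.1 to 126 and 96.4 to 116 CPM, with 0 of 2 positive and Lyve1 at 0 reads.

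The authors' deposited table lists 27 of the 33 genes, 23 of them with a positive log2 fold change. None of these 27 in the authors' deposited table has an FDR below 0.05, where 74 of its 9769 genes (0.757%) do. The smallest FDR of a replication gene in the authors' deposited table is 0.268, for Rrm2, at a log2 fold change of 1.45.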

How the data were processed

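Raw read counts per gene symbol in 6 libraries were used as deposited by the authors. Per the labels' protocols, 2 ng of total RNA was amplified by a SMART-Seq kit and read in 51 cycles without strand information. Tools listed, without roles, in the submitters' processing notes are edgeR 3.28.1, HTSeq 0.6.0, STAR 2.6.0 and bcl2fastq 2.18.0.12, with the builds mm10 and hg19. No counting options are stated there. Per the file headers, the second deposited table holds the authors' log2 fold change, log2 average CPM, likelihood ratio score, p-value and FDR. The authors' per-library values in it equal RPKM of the counts times 1.01 (median) and entered no test.

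Groups come from the titles. AML was compared with healthy by the quasi-likelihood test of edgeR 4.0.16 (R 4.3.3) on all genes, two-sided, with TMM scaling, filterByExpr (minimum count 10) and the group alone, and Benjamini-Hochberg adjustment over 12469 genes at 0.05. The code was tested on simulated data. RPKM was computed from TMM-scaled CPM and the table's gene lengths. Alternatives used DESeq2 1.42.0, limma 3.58.1, other size factors and filters, a replicate block and left-out libraries. The labels do not say whether the numbering pairs the libraries. Same-numbered deviations from the group means correlated at 0.13, -0.0523 and 0.16 across genes, and differently numbered ones at -0.21 to 0.081. Values this small and few cannot settle it. No libraries of a group were alike within sampling noise. With 3 against 3, an exact permutation test cannot go below 0.1.

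Values in every library are given for the member of each role with the highest mean RPKM and the one with the largest fold change, the 5 with the smallest p, the MCM ring and a few more. Of each other list the 2 genes with the smallest p are named besides a fixed set, some by fold change alone. Gins3 and Gins4 were added to these after the values were seen, as subunits of the same complex as Gins1 and Gins2. The members and lists were chosen with earlier results of these data known. Some listed genes are not reported here. Positions are those of the count table, taken as mm10: all 33 genes lie on the same chromosome in RefSeq's GRCm38.p6 and 21 have the identical start, while Tyms, Slbp and Chaf1a differ by over 1000 bases at one end, which can touch their RPKM. Counts of 3 or fewer reads equal at most 0.0641 CPM. Limits of this kind cover counting error only, and the interval of the promoter share treats the genes as independent draws.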

Additional observations from a re-analysis of the deposited data

How the results depend on the processing

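No replication gene passed an adjusted p of 0.05 under any alternative run. The number of all genes that passed was 0 in the quasi-likelihood test, 2 with library sizes alone, 2 without the low-count filter, 143 with DESeq2 (104 higher and 39 lower), 100 with the likelihood ratio test (76 higher and 24 lower), and 0 to 147 with 1 library left out (147 without AML 1, 89 without healthy 1). With healthy 1 and AML 1 both left out 444 genes passed, of which 225 were higher and 219 lower. The median log2 fold change of the 33 genes was 0.39, ran from 0.072 to 0.62 with 1 library left out, and was -0.0041 without healthy 1 and AML 1. The count of positive genes was 28, ran from 22 to 30, and was 16 without both. The ratio of summed levels was 1.13 and ran from 0.98 to 1.22.

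Whether the same replicate numbers pair the libraries is not labelled. With a replicate block 0 genes passed, and the 33 genes had a median of 0.38 with 28 positive.

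Some signs turned, and the cause was not tested. Pold1 stood at 0.0036 with library sizes alone. With 1 library left out in turn, the log2 fold changes that changed sign ran from -0.080 to 0.39 for Rrm1, from -0.0058 to 0.24 for Mcm6, from -0.085 to 0.31 for Mcm7, from -0.22 to 2.33 for Clspn, from -0.14 to 0.024 for Pold1, from -0.052 to 0.82 for Pole, from -0.063 to 0.25 for Rfc3, from -0.25 to 0.040 for Fen1, from -0.022 to 1.56 for Mki67, from -0.065 to 1.22 for Cdk1, from -0.10 to 0.36 for Ccne1, from -1.33 to 0.022 for Ccne2, from -0.13 to 0.19 for Cdkn2c, from -0.018 to 0.11 for Rb1, from -0.011 to 0.055 for E2f4, from -0.32 to 1.11 for Orc1, from -0.20 to 0.22 for Orc6 and from -0.0097 to 0.32 for Gmnn. Without healthy 1 and AML 1 together, values that changed sign included -0.14 for Tyms, -0.12 for Rrm1, -0.0076 for Tk1, -0.015 for Cdt1, -0.15 for Mcm7, -0.0041 for Gins2, -0.29 for Clspn, -0.35 for Pole, -0.092 for Rfc3, -0.056 for Lig1, -0.20 for E2f1, -0.13 for E2f8, -0.36 for Mki67, -0.31 for Cdk1, -0.31 for Ccne1, -0.13 for Cdkn2c, -0.061 for Rb1, -0.34 for Orc1, -0.17 for Orc6 and -0.12 for Gmnn.

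Precision is limited by 3 libraries a group. Members such as Clspn, with 9 to 368 reads, are limited by depth as well.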
